A study of Bos taurus with 20 samples.

Results

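The genes described here are the tumour necrosis factor (TNF) superfamily ligands and their receptors in bovine endometrium, the lining of the uterus. They were picked by gene name, with no value entering the rule: every non-control probe whose gene name on the array starts with TNFSF or TNFRSF, or is TNF, LTA, LTB, LTBR, FAS, FASLG, CD27, CD40, CD40LG, CD70, EDA, EDAR, NGFR or RELT. The rule found 61 of 43653 probes, which name 37 of 25381 genes, and 47 of these probes, naming 31 genes, were bright enough to be tested. LTB, EDAR, TNFSF12 and TNFRSF17 were not analysed here.

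The samples were uterine biopsies of 10 cows, each taken early and again late after calving, with 1 single-colour Agilent array per sample. Early samples came from day 42 to day 86 (mean 60.1 ± 13.3 days, SD, n = 10) and late samples from day 343 to day 436 (mean 388.9 ± 27.5 days, SD, n = 10). All 20 biopsies were taken on day 7 after oestrus from the horn beside the corpus luteum, per the design text, and the labels name no treatment, genotype or breed. Every late biopsy followed the early one of the same cow, so period, age and sampling order cannot be told apart. A biopsy holds many cell types, so fewer cells of a type and less RNA per cell cannot be told apart either.

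TNF superfamily ligands are mostly membrane-bound trimers, some of them released by proteases, and each binds 1 or more receptors with cysteine-rich repeats outside the cell. One class of receptor carries a death domain and can start apoptosis through FADD and caspases. Another class recruits TRAF adaptors and feeds the NF-kappaB and stress kinase pathways, which drive inflammatory and survival genes. Decoy receptors bind ligand without signalling. In the uterus, TNF is known as a product of macrophages and epithelium that acts on prostaglandin output and on the life of the corpus luteum, and the family is part of the inflammatory clean-up after calving.

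The array reads each gene with probes of up to 60 bases, and a few probes of members are shown. The first 3 are ligand probes, with capitals marking the run TTNGGNGCNTT that they have in common (N is any base).
TNFSF10: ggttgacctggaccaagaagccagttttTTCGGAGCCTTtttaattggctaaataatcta
TNFSF11: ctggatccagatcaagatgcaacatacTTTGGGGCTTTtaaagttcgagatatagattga
TNFSF14: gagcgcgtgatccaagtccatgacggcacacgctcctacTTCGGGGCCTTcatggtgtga
Per the array files they lie, on build Btau_3.1, at chr1:97117828-97117887, chr12:11488392-11488451 and chr7:16386527-16386586, all on the plus strand. The run is the 11-base window with the most bases in common to these 3 probes, so its frequency is a description. It occurs on the probe strand in 3 of 61 probes of the family (4.92%) and in 37 of all 43653 probes (0.0848%), and on either strand in 81 of all probes (0.186%). The TNFSF10 probe was well above background on all 20 arrays, the TNFSF14 probe on 9 and the TNFSF11 probe on 1.

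The next 5 belong to members on which the results turn. All are printed 5′ to 3′ as the array files give them, and only in CD40 are there capitals, which mark the 2 TGT and TGC codons of a frame without a stop; such codons number 5 in the TNFRSF13B probe, 2 in that of TNFRSF25, 1 in that of TNFRSF21 and 0 in that of TNF, and are not marked there.
CD40: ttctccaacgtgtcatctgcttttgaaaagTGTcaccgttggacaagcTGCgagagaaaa
TNFRSF25: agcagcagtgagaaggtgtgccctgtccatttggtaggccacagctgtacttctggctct
TNFRSF21: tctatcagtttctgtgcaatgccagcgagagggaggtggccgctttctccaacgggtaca
TNFRSF13B: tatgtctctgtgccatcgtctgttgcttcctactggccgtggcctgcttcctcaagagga
TNF: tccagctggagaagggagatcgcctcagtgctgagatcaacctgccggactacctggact
The CD40 probe covers chr13:75619845-75622705 (plus strand), a stretch of 2861 bases for a probe of 60. The others lie at chr16:44114385-44114444 (plus), chr23:21172011-21172070 (minus), chr19:36154685-36154744 (plus) and chr23:27532093-27532152 (minus), in the order printed. The TNFRSF13B probe is the gene's only one and was the one tested. For the other genes of this set a brighter probe, not printed here, was tested, and the printed one is a further reading of the same gene.

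Levels below are log2 signals relative to the 75th percentile of the same array, so 0 is the 75th percentile and 1 unit is a doubling. A level compares samples for 1 gene only, since different probes are not on a common scale. Between 71.8% and 80.2% of the 43803 non-control spots of each array were well above background and no spot was saturated. Of the 31 members tested, 27 were well above background on all 20 arrays, CD27 on 18, TNFSF8 on 19, LTA on 12 and TNFSF14 on 9. Of the uterine epithelial and stromal markers listed, 10 of 10 and 13 of 14 were measured, all of these on 20 of 20 arrays. Of all 19423 measured genes, 17213 passed on all 20 arrays, so this does not tell the labelled tissue from another.

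No TNF superfamily gene passed the test of a change between the periods. Late was set against early within each cow in a limma fit of all 19423 measured genes, and 0 of 31 members passed a Benjamini-Hochberg adjusted p of 0.05, against 1.32% of all genes (256 of 19423). At an unadjusted p of 0.05, 2 of 31 members passed, 1 higher and 1 lower late, against 22.6% of all genes (12.4% higher and 10.2% lower). The estimate was below 0 for 21 of 31 members, against 47.1% of all genes. The median change was -0.08 for the members and 0.02 for all genes. After quantile normalization these medians were -0.05 and 0.03, and without cows 4 and 9 together they were 0.005 and 0.019. The mean over the members was lower late in 5 of 10 cows. Early and late levels overlapped in 31 of 31 members; they did not overlap for 0.124% of all genes. In 6 of 31 members at least 8 of 10 cows moved the same way, which 32.6% of all genes did. The 95% interval of the change lay within 1 log2 unit of 0 for 28 members and within 0.5 for 11, and the intervals of the others reached beyond these sizes. On simulated data of 19215 genes the same test found 52% of the 50 genes given a true change of 0.5. At a change of 1 it found 84%, and at 2 it found 96%. Recovery of such changes in the members, whose median SE was 0.21, was not tested.

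**Figure D1:**
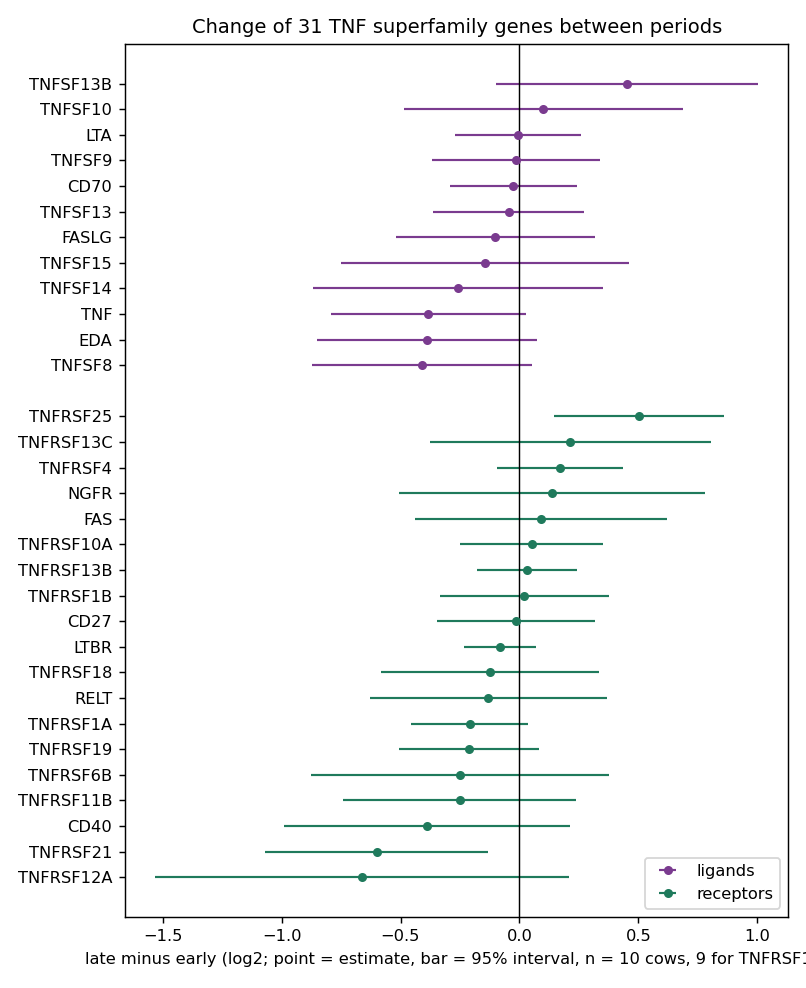
Change between periods (late minus early, log2) of the 31 measured members, ligands above and receptors below, as the limma estimate with its 95% interval over 10 cows (9 for TNFRSF1A). The intervals of TNFRSF25 (0.15 to 0.86) and TNFRSF21 (-1.07 to -0.13) lie to one side of 0, and the widest, that of TNFRSF12A, runs from -1.53 to 0.21.

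Among the ligands, 10 of 12 estimates were below 0, against 47.1% of all genes, and the median of the 12 was -0.07. LTA, TNFSF9, CD70 and TNFSF13, at -0.01, -0.01, -0.03 and -0.04, turned positive after quantile normalization. TNF, the founding cytokine of the family, had a lowest, median and highest level of -5.04, -4.21 and -2.93 early and of -5.62, -4.66 and -2.98 late. The ranges overlapped, with cow 4 at the top early and cow 3 at the top late. Its change was -0.38 ± 0.19 (SE, n = 10 cows; limma adjusted p = 0.249), lower in 7 of 10 cows, and -0.25 without cow 4. The TNF probe printed above gave -0.42, but it passed the background test in 6 early samples and 1 late sample. TNFSF8 (CD30 ligand, made by activated lymphocytes and monocytes) ranged from -6.24 over a median of -5.44 to -4.67 early and from -6.58 over -5.94 to -3.87 late, where cow 3 was far above the next cow at -5.61. Its change was -0.41 ± 0.21 (limma adjusted p = 0.275), but -0.11 after normexp background correction and -0.15 without cows 4 and 9.

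TNFSF13B (BAFF), which keeps B cells alive, had a positive estimate that turned negative with slide as a block (-1.61 ± 0.89, SE) and on slide 3 alone (-0.38). Its levels were -5.39, -4.55 and -3.29 early and -5.01, -3.97 and -3.25 late (lowest, median and highest). It was higher late in 8 of 10 cows, but cow 1 had the highest early and the lowest late level and fell by 1.72. The change was 0.45 ± 0.25 (SE, n = 10; limma adjusted p = 0.302), and a second probe of the gene gave 0.43. Without cow 1 the change was 0.70 with an adjusted p of 0.0707, the smallest that any member reached under any alternative run. TNFSF13 (APRIL), the other ligand of TNFRSF13B, was at -0.04 (95% interval -0.36 to 0.27).

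For TNFSF10, FASLG, LTA and CD70 the intervals lay on both sides of 0. TNFSF10 (TRAIL) had levels of -4.58, -3.34 and -1.87 early and -3.54, -3.11 and -2.48 late, and a change of 0.10 (95% interval -0.49 to 0.69). FASLG, which triggers FAS on target cells, had -5.70, -5.15 and -4.34 early and -6.18, -5.03 and -4.03 late, with a change of -0.10 (-0.52 to 0.32). With slide as a block the FASLG change was -2.16 ± 0.80 (SE), while on slide 3 alone it was 0.20. Of the 3 FASLG probes only the one tested was above background on more than 1 array. LTA (lymphotoxin alpha) was at -0.01 (-0.27 to 0.26), with a probe that passed the background test in 7 early and 5 late samples, and CD70, the ligand of CD27, at -0.03 (-0.29 to 0.24).

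EDA, ectodysplasin, a ligand of skin appendage development, had a change of -0.39 ± 0.21 (SE, n = 10; limma adjusted p = 0.293), lower in 8 of 10 cows. Most of it lay in cow 10, which fell by 1.91, and in cow 9, which fell by 1.40. Its second probe gave 0.08, and the 2 probes correlated at 0.175 over the 20 arrays within periods, a description over arrays that share cows and slides. The EDA estimate was -0.16 after normexp, -0.15 as the mean of its probes and -0.22 without cow 10, and further from 0 with slide as a block (-1.49 ± 0.45, SE; limma unadjusted p = 0.0125, adjusted p = 1) and on slide 3 alone (-1.68). Slide 3 was the only slide that held both periods, and its early samples were those of cows 9 and 10. These had the 2 highest early EDA levels (-4.67 and -3.65) and were set there against late samples of other cows. The remaining ligands, TNFSF9, TNFSF14 and TNFSF15, had changes between -0.26 and -0.01.

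TNFRSF25 (death receptor 3), which binds TNFSF15 and is known from T cells, had the smallest p of the family. Its levels were -3.72, -3.03 and -2.52 early and -3.86, -2.58 and -1.41 late (lowest, median and highest). It was higher late in 9 of 10 cows, most in cow 3 (by 1.54) and cow 10 (by 1.11), and lower in cow 9 (-0.46), while the groups overlapped. The change was 0.50 ± 0.16 (SE, n = 10 cows), 1.42-fold with a 95% interval from 1.11 to 1.81, and it did not pass the adjusted threshold (limma adjusted p = 0.117). The printed probe of the gene gave 0.24 with the same sign in 9 of 10 cows.

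TNFRSF21 (death receptor 6) pointed down. Its levels were 0.17, 0.67 and 1.93 early and -0.60, 0.25 and 0.76 late. Cows 4 and 10 had the highest early levels, and cow 10 the lowest late one, so that their changes of -1.65 and -2.11 exceeded those of the other cows. The change was -0.60 ± 0.21 (SE, n = 10), which is 1.52-fold higher early (95% interval 1.1 to 2.1; limma adjusted p = 0.141), lower in 8 of 10 cows. Its other probes gave -0.69 and, for the printed one, -0.36.

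**Figure D2:**
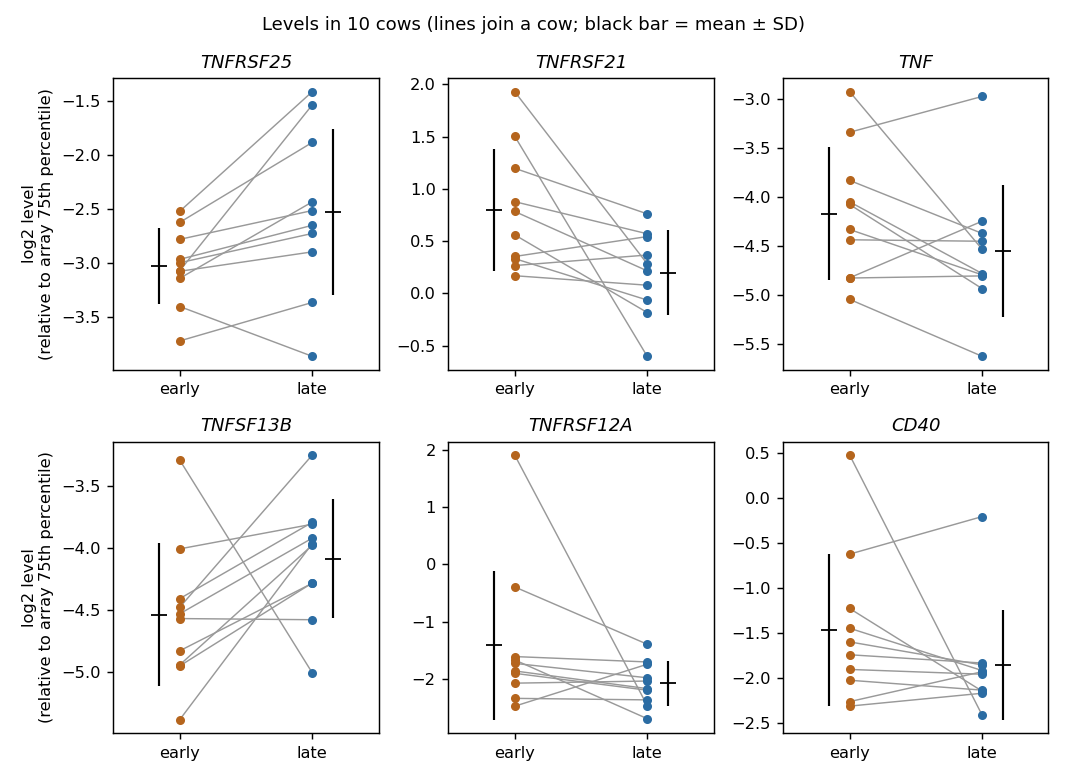
Levels (log2 relative to the array's 75th percentile) of 6 members in the early and late sample of each of 10 cows, joined by lines; black bars are the mean ± SD. TNFRSF25 is higher late in 9 cows and TNFRSF21 lower in 8; in TNFRSF12A and CD40 the early sample of cow 4 stands apart, at 1.91 and 0.47.

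The other death domain receptors were closer to 0. TNFRSF1A, the receptor that carries most TNF signalling, had levels of 1.32, 1.67 and 1.95 early and 0.85, 1.54 and 1.72 late. Early and late ranges overlapped. Its change was -0.21 ± 0.11 (SE, n = 9 cows; limma adjusted p = 0.284), since the late spot of cow 2 was marked as an outlier by the scanner software and left out. Cow 9 fell most, by 0.98, and without it the change was -0.11. FAS had -1.28, 0.54 and 1.13 early and -0.40, 0.46 and 1.24 late, with a change of 0.09 (95% interval -0.44 to 0.62). Cows 4 and 9 had the 2 lowest early FAS levels and the 2 largest rises, 1.14 and 1.79. TNFRSF10A, a TRAIL receptor, was at 0.05 (-0.25 to 0.35) and NGFR, the neurotrophin receptor p75, at 0.14 (-0.51 to 0.78).

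Of the receptors without a death domain, TNFRSF12A (Fn14, the receptor of TWEAK, known to rise in injured tissue) had the largest estimate of all members and the widest interval. Its levels were -2.48, -1.80 and 1.91 early and -2.70, -2.11 and -1.40 late. The early sample of cow 4, at 1.91, stood above the next early sample, that of cow 10 at -0.39, and the other early samples lay within the late range. The change was -0.66 ± 0.40 (SE, n = 10; limma adjusted p = 0.336), lower in 8 of 10 cows, and it was -0.25 without cow 4. CD40, which B cells, macrophages and stromal cells use to receive T cell help, was -2.31, -1.67 and 0.47 early and -2.41, -1.94 and -0.21 late. Its change was -0.39 ± 0.27 (adjusted p = 0.411) and -0.11 without cow 4, while the printed CD40 probe gave -0.79 with an adjusted p of 0.187. Cow 4 was the highest early and the lowest late sample for CD40, and cow 3 the highest late.

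LTBR, the lymphotoxin beta receptor of stroma and epithelium, had the narrowest spread. Its levels lay between 2.44 and 2.66 early (SD 0.07, n = 10) and between 2.09 and 2.61 late (SD 0.16), with cow 7 lowest late. The change was -0.08 ± 0.07 (SE; 95% interval -0.23 to 0.07). TNFRSF1B, the second TNF receptor, had 0.92, 1.54 and 2.03 early and 0.79, 1.40 and 2.48 late, and a change of 0.02 (-0.33 to 0.38) that was lower in 7 of 10 cows. TNFRSF4 (OX40), a receptor of activated T cells, was higher in 9 of 10 cows by a small amount, 0.17 ± 0.12 (SE, n = 10; limma adjusted p = 0.415), with cow 9 as the exception at -0.86. TNFRSF19 was at -0.21 ± 0.13 (adjusted p = 0.367), CD27 at -0.01 (-0.35 to 0.32) and RELT at -0.13 (-0.63 to 0.37). With slide as a block CD27 was at -1.14 ± 0.41 (SE), and on slide 3 alone at -0.56. TNFRSF18 had no settled direction, its tested probe giving -0.12 (-0.58 to 0.33). A second probe of that name gave 0.23, but the array files place it on the opposite strand, and it passed on 16 arrays. The 2 probes correlated at 0.161, and whether the second reads the same transcript was not tested.

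Neither decoy receptor passed the test, and both differed widely between cows. TNFRSF6B, a soluble decoy for FASLG and TNFSF15, lay between -0.04 and 3.51 early (median 2.70) and between -0.03 and 3.58 late (median 1.86), with a change of -0.25 (95% interval -0.88 to 0.38). TNFRSF11B (osteoprotegerin), a decoy for TNFSF11 and TNFSF10, had -3.70, -2.82 and -1.08 early and -3.81, -2.93 and -1.76 late. Its change was -0.25 ± 0.22 (SE, n = 10; limma adjusted p = 0.519), and -0.09 without cow 4.

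Members below the filter of 8 arrays well above background were not tested in the main fit. The alternative fit without a filter took in 37 members, of which 0 passed. CD40LG, the T cell ligand of CD40, passed the background test in 5 early samples and 0 late ones, TNFRSF9 on 1 early and 3 late, and TNFSF4 (OX40 ligand) on 2 and 2. TNFSF11 (RANKL) was above background on 1 late array, and its receptor TNFRSF11A (RANK) and TNFRSF8 (CD30) on 0 of 20. Levels of these 6 genes have only a bound where they are not above background. The bounds allowed no fold for CD40LG, TNFSF11, TNFRSF11A and TNFRSF8, and no fold is given for TNFRSF9 and TNFSF4. Of the RANKL pathway, the decoy TNFRSF11B was the member measured.

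Several members are neighbours on a chromosome, as the probe positions show. On chromosome 5, CD27, LTBR and TNFRSF1A lie between 110723228 and 110825194, and their changes were -0.01, -0.08 and -0.21. On chromosome 23, TNF (27531317 to 27531376) and LTA (27536148 to 27536207) were at -0.38 and -0.01. On chromosome 7, TNFSF14, CD70 and TNFSF9 lie between 16386527 and 16505757 and had -0.26, -0.03 and -0.01. On chromosome 16, TNFRSF4 and TNFRSF18 lie between 48560529 and 48567764 and had 0.17 and -0.12. The intervals of all of these estimates include 0, and differences between neighbours were not tested. The tested TNFRSF25 probe lies on the same chromosome at 44115081 to 44115140 and that of TNFRSF21 on chromosome 23 at 21146325 to 21146384.

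The spread between cows exceeded the change between periods in most members. The SD over the 10 early samples had a median of 0.56 over the 31 members (0.07 to 1.46) and over the late samples of 0.51 (0.16 to 1.46), and 27 of the 31 changes were smaller than the early SD. The range over cows exceeded 2 log2 units in 14 members early and in 10 late. These counts of spread were not made over all genes, so they are not read as particular to the family. A pair of biopsies supplied many of the extremes: the early sample of cow 4 was the highest for 14 of 31 members and the lowest for 4, and the late sample of cow 3 was the highest for 10.

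In the early sample of cow 4 the highest members were TNFRSF12A, TNFRSF18 (-2.84, next -4.20), CD40, TNFRSF21, TNF, RELT and TNFRSF11B among others, and the lowest were FAS, NGFR, TNFSF10 and TNFRSF13C. The same sample had the highest mean of the macrophage list (1.01), the NF-kappaB target list (-0.13, next -1.13), the neutrophil list (-1.40, next -2.15) and the epithelial list (2.05). The part of these marker levels in the levels of the members was not tested. The early sample of cow 9 had the lowest epithelial mean, 0.11 against 1.12 or more in the other early samples, the highest smooth muscle mean (3.74) and the highest early CD27, TNFSF8 and TNFSF13.

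Cow 3 differed in receptors of B cells. TNFRSF13C (BAFF receptor), which mature B cells need to survive, was at 0.20 early and 0.56 late in cow 3, against at most -2.94 and -2.57 in the other cows, whose lowest levels were -5.33 and -4.38. TNFRSF13B (TACI), a receptor of both BAFF and APRIL, was at -3.33 and -3.34 in cow 3 and at most -4.45 and -4.26 elsewhere. Markers of B cells were highest in the same 2 samples: MS4A1 (CD20) was at -0.93 and 0.12 against at most -3.89 and -3.38, CD79A at -0.52 and -0.41 against -1.75 and -1.51, and CD79B at -3.37 and -3.11 against -5.12 and -5.01. BLK was at -1.61 early, close to the -1.64 of cow 6, and at 0.11 late. Of the 10 B and plasma cell markers measured, the other 6 (PAX5, JCHAIN, SDC1, PRDM1, XBP1 and MZB1) were not highest in cow 3. The mean of the list was -0.25 and -0.16 in cow 3, and -1.73 to -1.04 early and -1.98 to -1.03 late in the others. Its part in the receptor levels was not tested.

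**Figure D3:**
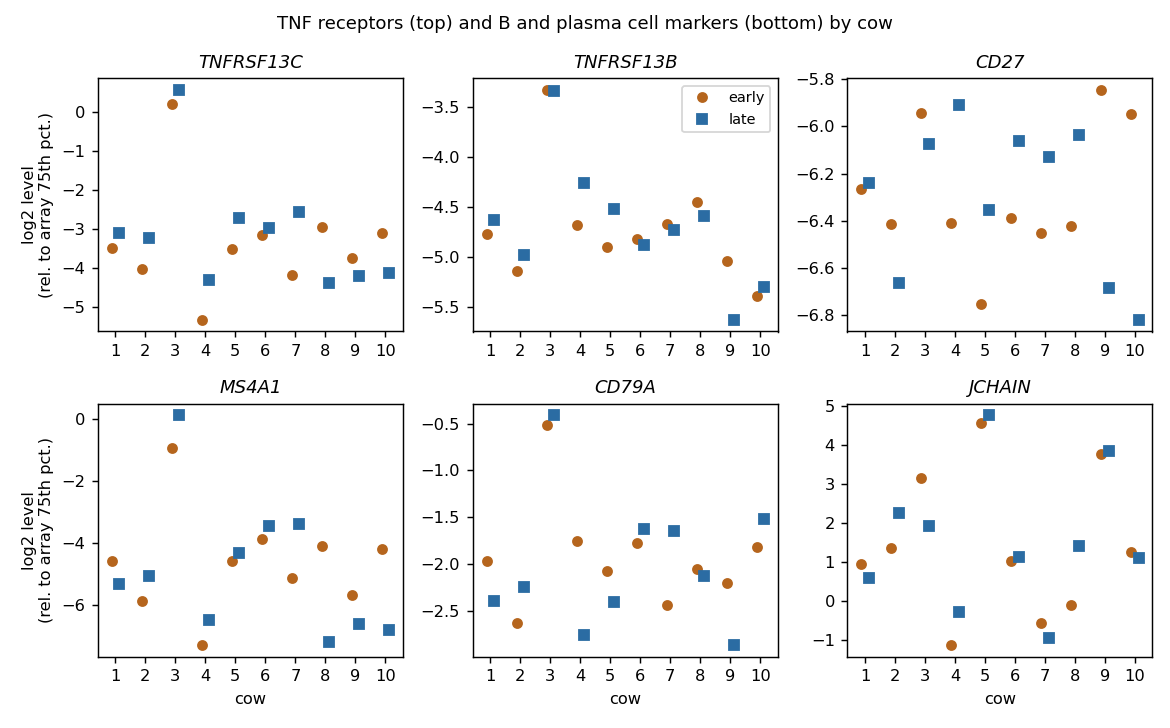
Levels (log2 relative to the array's 75th percentile) of 3 receptors and 3 B or plasma cell markers in each cow, early as circles and late as squares. In TNFRSF13C, TNFRSF13B, MS4A1 and CD79A both samples of cow 3 are the highest of their period, while CD27 and JCHAIN are highest in other cows.

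Between periods neither receptor passed the test. TNFRSF13C had a change of 0.21 ± 0.27 (SE, n = 10; limma adjusted p = 0.659) and TNFRSF13B of 0.03 ± 0.10 (adjusted p = 0.864). In the late sample of cow 3, CD40 (-0.21, next -1.83), TNF (-2.98, next -4.25), RELT (-0.33, next -1.70), TNFSF8, TNFSF13B and FASLG were also the highest of their period. The late macrophage mean of cow 3 was 0.39, against -0.33 or less in the other late samples. The late means of T and NK cell markers (-1.32, next -1.61), neutrophil markers (-1.42, next -2.18) and mast cell markers (-2.05, next -2.16) were also highest in cow 3. The part of these cells in the levels was not tested.

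Whether a cow that is high in a member early is also high in it late was asked by correlating the 2 levels over cows. Of 31 correlations 23 were positive with a median of 0.28, close to the 0.23 of all genes, of which 71.2% were positive. After adjustment over the 31 relations 0 passed in a permutation test (100000 resamples, two-sided), and 5 had an unadjusted p under 0.05. The highest was TNFRSF13B, with r = 0.89 and rho = 0.76 over 10 cows (permutation p = 0.00252 and 0.0144, adjusted p = 0.0781 and 0.152). Without the 2 cows farthest from the early median, r was 0.62. TNFRSF13B passed by r after quantile normalization (permutation adjusted p = 0.0155 over 10 cows). Without cow 9 it passed by r together with TNFRSF4 (permutation adjusted p = 0.025 and 0.00899 over 9 cows). With the 2 cows farthest from the early median left out of these fits, r was 0.62 and 0.54 for TNFRSF13B and 0.88 for TNFRSF4. Cow 3 had the highest TNFRSF13B level in both periods. TNFRSF25 had r = 0.76 and TNFRSF6B r = 0.73 (permutation adjusted p = 0.163 and 0.213, n = 10 cows), and without 2 cows they had 0.63 and 0.84. For TNFRSF13C, r = 0.79 rested on cow 3, since rho was 0.13 and r without 2 cows was -0.51. CD27 was lowest, with r = -0.41 and rho = -0.29.

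**Figure D4:**
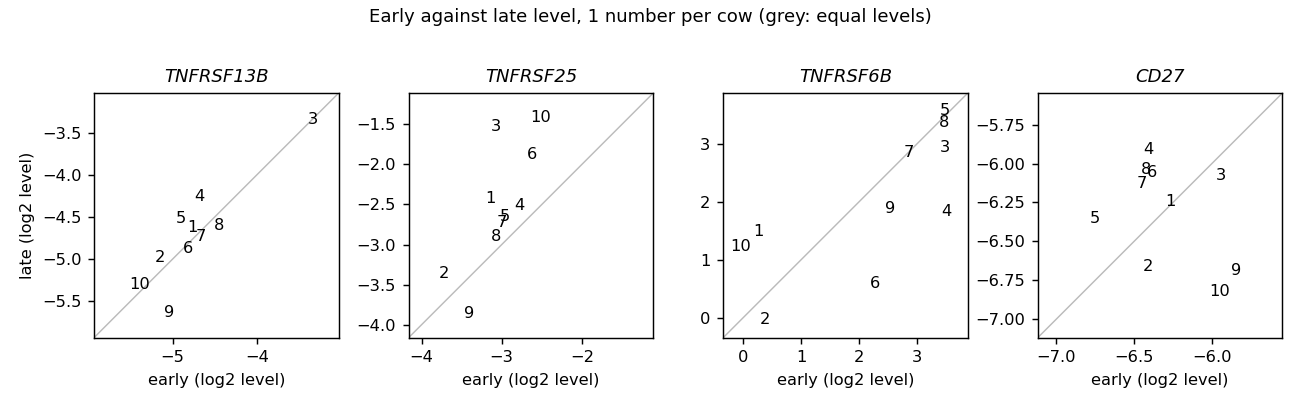
Late level against early level (log2) of 4 members, each number marking a cow and the grey line equal levels. TNFRSF13B, TNFRSF25 and TNFRSF6B have r = 0.89, 0.76 and 0.73 over 10 cows, and CD27 has r = -0.41.

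Ligands and receptors were also compared as pairs, by the change of one against the change of the other over cows. Of 24 pairs listed, 11 could be measured, and 0 passed after adjustment over the 11 (permutation test, 100000 resamples, two-sided). FASLG and FAS had r = 0.56 and rho = 0.75 (permutation p = 0.0926 and 0.0169, adjusted p = 0.509 and 0.185, n = 10 cows; r without 2 cows 0.65). APRIL and TACI, that is TNFSF13 and TNFRSF13B, had r = 0.75 and rho = 0.48 (permutation p = 0.025 and 0.17, adjusted p = 0.275 and 0.609), and r was 0.39 without 2 cows. TNF had r = 0.17 with TNFRSF1A (n = 9) and -0.22 with TNFRSF1B, and TNFSF15 had -0.44 with TNFRSF25.

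Within a period the day after calving was fitted as a slope per 10 days. In the early period 0 of 31 members passed the adjusted threshold, as did 0 of all 19423 genes, and 2 members had an unadjusted p under 0.05, against 5.66% of all genes. TNFSF8 fell with the day by 0.31 ± 0.09 per 10 days (SE, n = 10; limma unadjusted p = 0.00761, adjusted p = 0.829), and TNF had a slope of -0.35 ± 0.12 (unadjusted p = 0.0141, adjusted p = 0.829). TNFSF13 followed with -0.15. Without cow 5, whose early sample was the latest of the period, 0 members had an unadjusted p under 0.05. The largest positive slope by p was that of FAS at 0.26 (adjusted p = 0.944), and TNFRSF1B and TNFSF10 had 0.06 and 0.09. In the late period 0 of 31 members had an unadjusted p under 0.05, against 1.37% of all genes. The slopes of smallest p there were 0.06 for EDA, 0.08 for TNFRSF1B and 0.03 for LTBR, and -0.09 for TNFSF9, -0.23 for TNFRSF13C and -0.08 for FAS. TNFSF8 and TNF had late slopes of -0.04 and -0.04.

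**Figure D5:**
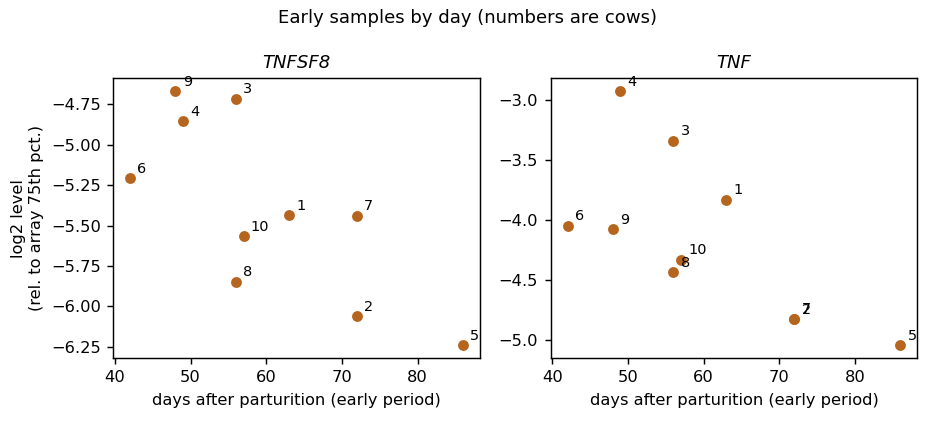
Levels (log2 relative to the array's 75th percentile) of TNFSF8 and TNF in the 10 early samples by day after parturition, numbered by cow. The sample of day 86, from cow 5, is the lowest for both, at -6.24 and -5.04, and the fitted slopes are -0.31 and -0.35 per 10 days.

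Downstream of the receptors, the adaptors and ubiquitin ligases were all measured (17 of 17) and 0 passed, with a median change of -0.04. RIPK1, the kinase that sits at the branch of survival and death signals, was at -0.32 ± 0.08 (SE, n = 10; limma adjusted p = 0.0781), lower in 9 of 10 cows, and TRAF1 at 0.17 (adjusted p = 0.222). Of the genes of death execution and its inhibitors 11 of 13 were measured and 0 passed, with a median of -0.06. CFLAR (c-FLIP), which blocks caspase 8, was lower in 10 of 10 cows at -0.34 ± 0.07 and did not pass (limma adjusted p = 0.0521). Its adjusted p was 0.0353 to 0.0490 under 3 alternatives (cow as a random block, quantile normalization, and the filter on all arrays). It was 0.138 after normexp (change -0.15), 0.0899 with slide as a random block and 0.0613 to 0.111 with 1 cow left out. With slide as a block the CFLAR change was -0.20 ± 0.42 (SE). MLKL, which ruptures membranes in necroptosis, was at -0.50 ± 0.13 (adjusted p = 0.0781). All 18 NF-kappaB kinases and subunits were measured and 0 passed, with MAP3K5 (ASK1) at -0.39 (adjusted p = 0.0712) and MAP2K4 at -0.18 (adjusted p = 0.139) and a median of -0.11. Of 9 of 10 genes of ligand processing and shedding 0 passed, RHBDF2, a cofactor of the TNF-releasing protease ADAM17, being at 0.29 (adjusted p = 0.116), ZFP36, which destabilises TNF mRNA, at -0.32 (adjusted p = 0.166) and the median at -0.10.

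NF-kappaB feedback and target genes were the one pathway list with members past the threshold. Of the 25 genes 21 were measured, and 2 fell and 0 rose, against 0.777% and 0.541% of all genes. The median of the 21 was -0.16, and 12 estimates were below 0, against 47.1% of all genes. SOD2 was higher late in 10 of 10 cows at 0.27 (limma adjusted p = 0.178), and CYLD in 9 of 10 at 0.26 (adjusted p = 0.137). CXCL8, a neutrophil attractant, was at -4.82 ± 0.66 early and -5.97 ± 0.43 late (SD, n = 10), a change of -1.15 ± 0.23 (SE; limma adjusted p = 0.0424), lower in 10 of 10 cows. ICAM1, a leukocyte adhesion molecule, was at -2.38 ± 0.51 early and -3.30 ± 0.35 late, a change of -0.91 ± 0.18 (adjusted p = 0.0426), in 10 of 10 cows. Each call held in 1 of the 10 fits that left out a cow, the one without cow 5, and ICAM1 was at 0.07 with slide as a block. CXCL8 was at -0.47 after normexp background correction (adjusted p = 0.0635) and further from 0, at -2.002, as the mean of its probes (adjusted p = 0.0281).

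Of 14 macrophage markers measured, 5 fell (GPNMB, VSIG4, CD68, MSR1 and TYROBP) and 0 rose, against 0.777% and 0.541% of all genes, with a median of -0.73. The other 9 did not pass, and CD163 among them was at 0.12. All but 1 of the 14 were well above background on 20 arrays, and the mean level of the list lay between -0.71 and 1.01 early and between -1.37 and 0.39 late. Of the other lists, 1 of 15 T and NK cell markers (NKG7), 1 of 8 neutrophil markers (FCGR3A) and 1 of 13 stromal markers (HAND2) fell, while 0 of 10 B and plasma cell, 0 of 5 mast cell, 0 of 10 epithelial, 0 of 7 endothelial and 0 of 6 smooth muscle markers passed. The neutrophil list had a median of 0.14 with 3 of 8 estimates below 0. LTF in it was at 1.29, in the other direction from FCGR3A (limma adjusted p = 0.153), and higher in 9 of 10 cows. Which cells of the biopsy express FCGR3A and LTF was not tested, so neither is read as a neutrophil result. The medians of the T and NK cell and stromal lists were -0.18 and -0.25. Their part in the members' estimates was not tested.

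Slide and period largely coincided on these arrays. Of the 5 slides 2 held early samples only and 2 late samples only, and slide 3 held the early samples of cows 9 and 10 with the late ones of cows 1 and 2. With slide as a further block, 0 members and 0 of all genes passed. At a limma unadjusted p of 0.05, 3 of 31 members passed, all lower late, against 366 of 19419 genes. In this fit TNFRSF25 was at 0.26 ± 0.92 and TNFRSF21 at -0.08 ± 1.0 (SE). Within slide 3 alone they were at 0.06 and -1.26, between different cows, and at -0.38 and -1.41 when the early array of cow 9 was left out as well. The standard errors of the blocked fit exceeded its estimates for both of these genes. On slide 3 the TNFRSF21 values had SEs of 0.29 and 0.33 (limma unadjusted p = 0.0109 and 0.0164, adjusted p = 0.537 and 0.332), and those of TNFRSF25 0.48 and 0.48.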

How the data were processed

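Endometrial RNA of 10 cows, each sampled early and late after calving, was read on 20 single-colour (Cy3) Agilent arrays. Scanning with Agilent Feature Extraction 10.5.1.1 is named in the submitters' processing notes. Per the file headers, the deposited intensity values are spot signals after background subtraction and detrending within each array. The authors' deposited value table holds log2 values whose scale and centring are not stated: its columns matched the log2 signals computed here after centring each gene on its median (correlation at least 0.999996), with column medians from -0.153 to 0.051, and it served as an alternative.

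From the intensities, log2 was taken and the 75th percentile of each array subtracted. Control spots and outlier spots (3 to 114 per array) were left out. Probes well above background on at least 8 of 20 arrays were kept, and a gene was read by its probe of highest mean. The 2 periods were compared over 19423 genes by limma 3.58.1 under R 4.3.3, with cow as a block, and p-values were Benjamini-Hochberg adjusted at 0.05. Cows were paired by the animal number in the labels; late source names carry other numbers than the titles. Deviations of a cow's 2 samples correlated at -0.11 to 0.76 (median 0.42, above 0.1 in 8 of 10 cows), against a median of -0.03 between cows. Names came from the array or, by accession, from RefSeq. Precision is limited by how many arrays there are. The fit was tested on simulated data.

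The name rule for the members uses no value, but it and the lists were chosen with earlier results of these data known. The genes named are members past the threshold, the 12 of smallest p, a set chosen for its role, up to 4 called or otherwise the 2 leading genes of each pathway list, the 3 leading slopes per direction and the ends of the early-late correlations; other members and the cows singled out were named after their values were seen. Alternatives changed the pairing, background correction, scaling, filter, probes, slide and cows.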

Additional observations from a re-analysis of the deposited data

Results flagged for a closer look

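In each period the highest and lowest sample of every member was compared with the next one by Dixon's criterion, and 12 of 62 groups, in 10 genes, had a sample far from the others. For independent, normally distributed values about 1 in 20 groups would be flagged, but members measured in 1 biopsy are not independent. The share over all genes was not computed, so the count is not read as a trait of the family.

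Of the 12, 7 were samples of cow 3. Late, CD40 was at -0.21 (next -1.83), RELT at -0.33 (next -1.70), TNF at -2.98 (next -4.25) and TNFSF8 at -3.87 (next -5.61). TNFRSF13C was at 0.20 early (next -2.94) and 0.56 late (next -2.57), and TNFRSF13B was at -3.33 early (next -4.45).

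The early sample of cow 4 had TNFRSF12A at 1.91 (next -0.39) and TNFRSF18 at -2.84 (next -4.20). The early sample of cow 10 had TNFRSF4 at -1.06 (next -1.72). On the low side, LTBR was at 2.09 in the late sample of cow 7 (next 2.34) and TNFRSF18 at -5.77 in the late sample of cow 9 (next -5.27).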

How the results depend on the processing

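The count of members past the adjusted threshold was 0 under each of the 25 alternatives to the late against early fit, with a smallest adjusted p of 0.0707 (TNFSF13B without cow 1). Over all genes the count was 256 with cow as the replicate block, 119 with no replicate block, 724 with the replicate block as a random effect, 114 with no filter, 35 with slide as a random block, 0 with slide as a block (366 unadjusted), 0 on slide 3 alone (1723 unadjusted) and 0 on slide 3 without the early sample of cow 9 (2195 unadjusted, an alternative added after seeing the data), and 35 to 159 when 1 cow was left out. The share of calls higher late was 41.0%, but 53.3% with normexp, 51.7% with quantile normalization, 50.2% with median scaling, 51.8% with the random replicate block, 20% with slide as a random block and 64.2% without cow 7. Early-late correlations past the threshold numbered 0, 1 with quantile normalization and 0 to 2 when 1 cow was left out.

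Of 740 alternative values of the 31 members, 651 kept direction and call and 89 changed sign; of 239 values of 10 pathway genes, 196 did, 5 changed sign, 30 lost and 8 gained the call. The sign changes of members and of the pathway genes TRAF1, ICAM1 and MAP2K4, in log2 units, were as follows, and the cause was not tested. The mean of a gene's probes gave TNFRSF1B -0.0487 and TNFRSF18 0.0543. Normexp gave LTA 0.0686, FASLG 0.0014, CD27 0.0111 and CD70 0.005. Quantile normalization gave LTA 0.0106, TNFSF13 0.0177, CD27 0.0216, CD70 0.0368 and TNFSF9 0.0193. Median scaling gave LTA 0.0186, CD27 0.0116, CD70 0.0008 and TNFSF9 0.0121. Slide as a block gave TNFSF13B -1.6138, TNFRSF12A 1.7721, TNFRSF19 0.7429, CD40 0.6688, TNFRSF4 -0.2543, LTBR 0.3281, FAS -0.9507, TNFSF10 -1.34, TNFRSF11B 0.4036, TNFSF13 0.3583, TNFRSF13C -0.4659, CD70 0.9438, TNFRSF13B -0.0414, TNFSF15 1.4, TNFRSF6B 1.0706, TNFRSF18 0.7701, RELT 0.1754, NGFR -0.9429, TRAF1 -0.1379 and ICAM1 0.0701. Slide 3 alone gave TNFSF13B -0.3755, TNFRSF19 0.264, TNFRSF4 -0.3281, TNFRSF1B -0.0131, FASLG 0.1997, TNFSF10 -0.2437, CD70 0.0977, TNFSF9 0.3685, NGFR -1.2629, TRAF1 -0.0667 and MAP2K4 0.0289. Slide 3 without the early sample of cow 9 gave TNFRSF25 -0.3791, TNFRSF1A 0.0839, TNFRSF4 -0.7671, FAS -0.001, FASLG 0.4769, TNFSF10 -0.1272, TNFSF13 0.0072, TNFRSF13C -0.0678, CD70 0.1984, TNFSF9 0.0762, TNFRSF6B 0.7764, NGFR -1.9902 and TRAF1 -0.3313. Without cows 4 and 9 together LTA was 0.0406, FAS -0.2512, TNFSF10 -0.0986, TNFRSF11B 0.005, TNFSF13 0.0854, CD27 0.0247, CD70 0.0961, TNFSF9 0.0499, TNFRSF18 0.092 and RELT 0.1416. With 1 cow left out, LTA ran from -0.0849 to 0.0726, TNFRSF1B from -0.0916 to 0.1003, CD27 from -0.0715 to 0.0811, FAS from -0.0972 to 0.2139, TNFSF10 from -0.1215 to 0.2851, CD70 from -0.0727 to 0.0361, TNFSF13 from -0.1091 to 0.0832, TNFRSF13B from -0.0108 to 0.1016, TNFSF9 from -0.0727 to 0.0993, TNFSF15 from -0.3306 to 0.0281, TNFRSF18 from -0.2168 to 0.0717, TNFRSF10A from -0.0064 to 0.1836 and RELT from -0.2911 to 0.0299.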
